A study of Homo sapiens with 1 sample.

Results

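The 10 neural RNA-binding splicing regulators described here were followed across the cell states of 1 scRNA-seq library. They are the ELAVL family (ELAVL1, ELAVL2, ELAVL3 and ELAVL4), the RBFOX family (RBFOX1, RBFOX2 and RBFOX3), the polypyrimidine tract-binding proteins PTBP1 and PTBP2, and NOVA1. They were chosen by name from these families, with earlier results of these data known. The relatives PTBP3 and NOVA2 are not among them and were read with other lists. All 10 were among the 33538 genes listed in the count table. The cells were human embryonic stem cells (hESCs) of the established line H9, with the human form of the HAR123 enhancer (hHAR123, genotype WT), taken on the way to neural progenitor cells (NPCs). The differentiation used Dorsomorphin and SB431542, inhibitors of BMP and TGF-β signalling, for 2 days on plates with Rock inhibitor and a further 5 days as rotating embryoid bodies, followed by 7 days of attachment without the inhibitors. Independent clones were mixed before capture, and the cells were collected ahead of the rosette selection step. Other genotypes of the study are not analysed here. Since the library has no replicate, no test was run, and each comparison below is between cells of the same library.

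The 4 gene families act on RNA after transcription. PTBP1 binds pyrimidine-rich RNA and keeps many neuronal exons out of transcripts in progenitors and non-neural cells, and PTBP2 is its paralog in developing neurons with weaker repression of many of the same exons. ELAVL proteins bind U-rich RNA and act on both splicing and RNA stability, with ELAVL1 (HuR) found in most cells and ELAVL2, ELAVL3 and ELAVL4 (HuB, HuC and HuD) known as early markers of neurons. RBFOX proteins bind the motif UGCAUG next to alternative exons, and the RBFOX3 protein is the neuronal antigen NeuN. NOVA1 binds YCAY clusters and directs neuronal splicing in the ventral brain and spinal cord.

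The best known link between these genes lies in PTBP2 itself. PTBP1 represses inclusion of a short exon of PTBP2, and transcripts without that exon carry a premature stop and are degraded by nonsense-mediated decay. The annotation (GENCODE 44) holds this exon as exon 10 of the canonical transcript, 34 nucleotides long, at chr1:96806419-96806452 on the plus strand of GRCh38. It is present in 12 of the 20 annotated PTBP2 transcripts that span it. The exon is printed here in capitals with the 120 bases before it and the 40 bases after it (chr1:96806299-96806492), because PTBP1 is known to act through the pyrimidine tract before it.
PTBP2 exon 10: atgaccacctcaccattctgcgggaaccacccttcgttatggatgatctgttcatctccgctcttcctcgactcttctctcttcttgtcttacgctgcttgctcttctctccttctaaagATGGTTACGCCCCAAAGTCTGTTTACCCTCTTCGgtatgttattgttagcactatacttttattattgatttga
C or T made up 71.7% of the 120 bases before the exon. The letters TTCT, TCTT and CTCT, which PTB proteins are known to bind in RNA, were searched on the sense strand with overlapping matches counted, and they matched at 17 positions. Over the 30754 exons other than first exons in canonical protein-coding transcripts of chromosomes 1 and 19, the median was 54.2% C or T and 3 matches. Of these exons, 0.140% had at least as many matches and 2.08% had at least as high a C or T share. A match of letters describes the sequence and is not a measured binding site. The library counted the 3′ ends of transcripts, so use of this exon was not measured.

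MicroRNA host transcripts were also read beside these genes. miR-9-5p is abundant in the developing nervous system, and the neuronal gene silencer REST is among its described targets. REST is not among the regulators described here, and no microRNA site was searched in them. Loci of miR-9-5p were looked up in 2 host transcripts only. They are C1orf61 (MIR9-1, mature copy at chr1:156420392-156420414, minus strand) and LINC00461 (MIR9-2, chr5:88666902-88666924, minus strand). These loci give the same mature sequence, from RefSeq on GRCh38.p14, with its seed (bases 2 to 8) in capitals. It is shown because both host transcripts are described with the splicing regulators further on. The microRNA was not measured.
miR-9-5p: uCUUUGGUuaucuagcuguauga

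The library held 14726 barcodes and 327640709 unique molecular identifiers (UMIs, each 1 captured RNA molecule). A barcode was kept with 2000 to 10000 detected genes and a mitochondrial share under 0.1, which left 13925 cells (94.6%) with a median of 17900 UMIs. Newborn neuron-like cells were those with a UMI of at least 3 of the 5 genes STMN2, INSM1, NHLH1, NEUROD1 and DCX. They numbered 137, or 0.984% of kept cells (exact binomial 95% interval 0.827 to 1.16%), with a median of 14455 UMIs. Contractile cells had at least 5 UMIs of ANXA1, TFPI2 and CTGF together per 10000, and numbered 1582 (11.4%), with a median of 47149.5 UMIs. The remaining 12204 cells (87.6%) are called progenitors and had a median of 16946.5 UMIs. Another 2 cells met both rules and were left out. The 1178 barcodes with the highest doublet scores, 8% of all, took in 12 of the 137 newborn neuron-like cells. They also took in 945 of the 12204 progenitors and 132 of the 1582 contractile cells. None of the 10 regulators took part in the rules.

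Markers outside the rules were read as a check of the 3 names. Of 11 neuronal genes at a sufficient level, 10 were at least 2-fold higher in newborn neuron-like cells than in progenitors, among them CNTN2 (69.7-fold) and SNAP25 (9.91-fold). Both of these, with TUBB3, MAPT and ROBO3, reached that level (a mean of 5 CPM over the 3 groups, with CPM the UMIs per 1000000) only through newborn neuron-like cells, so the filter favoured their difference. Of the other 6 genes, 5 were at least 2-fold higher, among them STMN4 (6.96-fold) and MAP2 (2.34-fold). TUBB3 was low in all groups, at 4.30 CPM in progenitors and 25 CPM in newborn neuron-like cells. All 7 muscle-type genes tested were at least 2-fold higher in contractile cells (TAGLN 10.3-fold). Of the 11 neuronal genes, GAP43 (8.32-fold) was also higher there and MAP2 (0.211-fold), NEFL (0.305-fold) and NEFM (0.157-fold) were lower. Of the 5 rule markers, STMN2 (2.24-fold) was higher there and DCX (0.464-fold) was lower. The other 3 met the level only through newborn neuron-like cells and were below 1 CPM in progenitors and contractile cells. Contractile cells had 4.73-fold the VIM and 0.282-fold the SOX2 of progenitors. SOX2 and FABP7 stood at 414 and 488 CPM in progenitors, and of 10 neural progenitor genes 5 were at least 2-fold lower in newborn neuron-like cells, while 6 were lower and 2 higher in contractile cells. Summed mitotic genes were at 2297 CPM in progenitors, 1043 CPM in newborn neuron-like cells and 1678 CPM in contractile cells. In the same order, summed neural crest and mesenchyme markers were at 19.2, 32.3 and 87.4 CPM, pluripotency markers at 362, 237 and 258 CPM (LIN28A and DPPA4 in the main, with POU5F1, NANOG, TDGF1 and ZFP42 each below 0.5 CPM), endoderm markers at 0.658, 1.72 and 13.5 CPM and endothelial markers at 20.1, 9.05 and 31.0 CPM. Epithelial markers were at 195, 95.7 and 690 CPM, led in contractile cells by KRT18. Glial markers were at 87.7, 78.0 and 12.9 CPM, and GFAP, AQP4 and OLIG1 were at 0 in newborn neuron-like cells. Of the neural crest and mesenchyme markers, TFAP2A was at 0.331 CPM in progenitors and 21.6 CPM in newborn neuron-like cells, and PRRX1 at 8.09 and 1.72 CPM. COL1A2, at 68.7 CPM, made up most of their sum in contractile cells.

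The neuronal ELAVL genes and RBFOX3 were higher in newborn neuron-like cells, PTBP1 and ELAVL1 were lower there, and RBFOX2 lay close to the progenitor level. In contractile cells PTBP2 and NOVA1 stood at about 0.5-fold the progenitor level, and ELAVL3 (0.410, 0.346 to 0.482) and ELAVL4 (0.128, 0.0543 to 0.256) were lower still. With all cells thinned to 5000 UMIs, however, ELAVL3 was at 0.659 (0.428 to 0.977). Against progenitors, 4 of the 10 genes were at least 2-fold higher in newborn neuron-like cells (ELAVL2, ELAVL3, ELAVL4 and RBFOX3), where 784 of all 11995 genes tested, or 6.54%, were so. None of the 10 was at least 2-fold lower, against a background of 7.54%. In contractile cells none was at least 2-fold higher (background 6.68%) and 2 were at least 2-fold lower, ELAVL3 and ELAVL4 (background 14.9%). A gene was compared where its mean over the 3 groups was at least 5 CPM, and ELAVL3, ELAVL4 and RBFOX3 met this only through newborn neuron-like cells. Their newborn difference was thus favoured by the filter, and their contractile ratios compare levels near or below 5 CPM. Over the 7 genes that met the level in progenitors and contractile cells alone, none was at least 2-fold lower, against 13.4% of all genes that did. The median ratio over the 10 genes was 1.51 in newborn neuron-like cells and 0.719 in contractile cells, beside 0.958 and 0.851 over all genes tested. Over the 7 genes that did not need newborn neuron-like cells to be compared, the medians were 0.982 and 0.958, and only ELAVL2 of the 7 was at least 2-fold higher in newborn neuron-like cells, where 4.34% of all such genes were. The contractile median of all genes tested is a shift of -0.23 on the log2 scale, so a contractile ratio near 0.851 is that of a typical gene. Divided by that median, the contractile ratios of PTBP2, NOVA1 and RBFOX2 were 0.591, 0.602 and 0.900. A level is a gene's summed UMIs over all UMIs of the group, with exact Poisson 95% intervals, and ratios carry the exact conditional 95% interval. All intervals cover counting error only, since cells are not replicates.

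**Figure D1:**
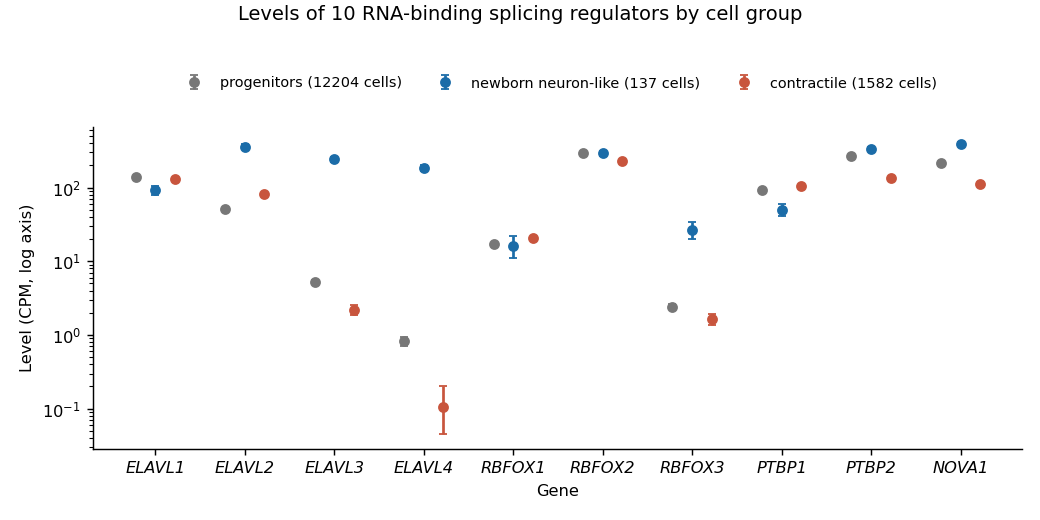
Level of each of the 10 regulators in progenitors, newborn neuron-like and contractile cells of the library, in CPM on a log axis, with exact Poisson 95% intervals as bars. ELAVL4 spans the widest range, from 0.105 CPM in contractile to 185 CPM in newborn neuron-like cells, while RBFOX2 lies between 228 and 298 CPM in all 3 groups.

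**Figure D2:**
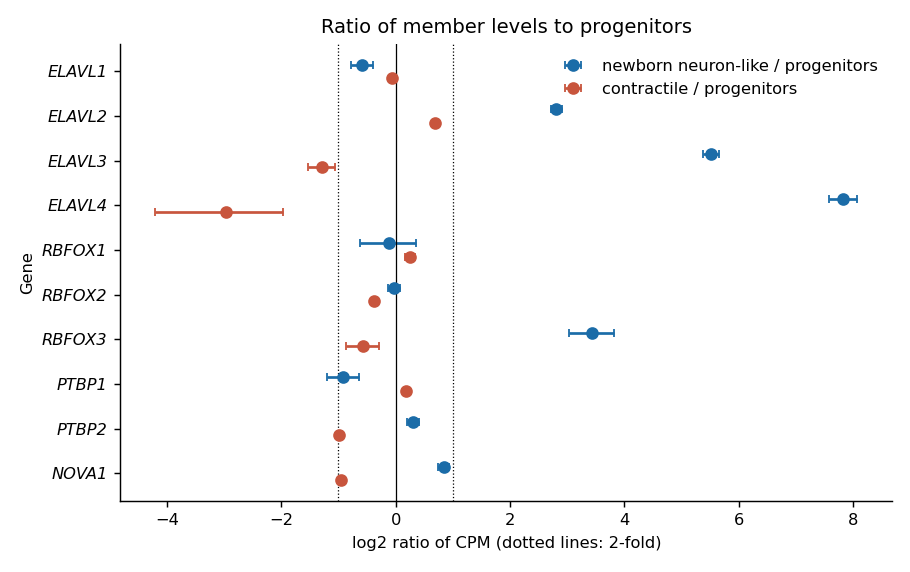
Ratio of each regulator's CPM to that of progenitors on a log2 axis, with exact conditional 95% intervals as bars and dotted lines at 2-fold. ELAVL2, ELAVL3, ELAVL4 and RBFOX3 lie beyond the upper line in newborn neuron-like cells, and ELAVL3 and ELAVL4 lie beyond the lower line in contractile cells.

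Within the ELAVL family, ELAVL4 (chr1:50024029-50203772, plus strand) differed most. It was at 0.819 CPM in progenitors (193 UMIs), 185 CPM in newborn neuron-like cells (429 UMIs) and 0.105 CPM in contractile cells (8 UMIs). The newborn ratio was 226 (190 to 269), and only 19 of the 11995 genes tested had a larger one. ELAVL3 (chr19:11451326-11481046, minus strand) was at 5.29, 242 and 2.17 CPM, a newborn ratio of 45.8 (41.4 to 50.6) with 61 genes above it. Both genes were thus low in progenitors and contractile cells and far higher in newborn neuron-like cells. They are among 478 genes tested that met the 5 CPM level only through newborn neuron-like cells, so the filter favoured their ranks.

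ELAVL2 (chr9:23690104-23826337, minus strand) had a different pattern, with 51.0 CPM already present in progenitors. It was at 358 CPM in newborn neuron-like cells, a ratio of 7.02 (6.53 to 7.53). It was also higher in contractile cells, at 81.9 CPM and a ratio of 1.60 (1.56 to 1.65), and of the 3 neuronal ELAVL genes it was the only one above the progenitor level there. ELAVL1 (chr19:7958573-8005659, minus strand), the ubiquitous member, was at 137 CPM in progenitors and 91.4 CPM in newborn neuron-like cells, a ratio of 0.666 (0.579 to 0.763). In contractile cells it was at 131 CPM, and its ratio of 0.958 (0.936 to 0.979) turned to 1.13 when divided by the median ratio of all genes tested. The summed UMIs of ELAVL2, ELAVL3 and ELAVL4 per ELAVL1 UMI were 0.417 in progenitors, 8.59 (7.45 to 9.96) in newborn neuron-like cells and 0.641 in contractile cells.

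Counted cell by cell, ELAVL3 had a UMI in 102 of 137 newborn neuron-like cells (74.5%, exact binomial 95% interval 66.3 to 81.5%) and ELAVL4 in 84 (61.3%, 52.6 to 69.5%). Both were detected together in 81 of these cells, in 19 of 12204 progenitors and in 1 of 1582 contractile cells. Contractile cells, a type not known for these genes, give a share to compare with. Of these cells, 6.38% had an ELAVL3 UMI and 0.442% an ELAVL4 UMI at a median depth of 47149.5 UMIs. In progenitors, at 16946.5 UMIs, the shares were 7.46% and 1.22%. With each cell thinned to 5000 UMIs (28 shallower cells left out, 24 of them progenitors, 1 newborn neuron-like and 3 contractile), ELAVL3 was found in 2.30% of progenitors, 58.1% of newborn neuron-like cells and 1.58% of contractile cells. ELAVL4 was found in 0.484% of progenitors, in 68 of 136 newborn neuron-like cells and in 0 of 1579 contractile cells, and 3 counts of the total, the limit taken for a count of 0, are a share of 0.190% of cells with a UMI at this depth. No neuronal ELAVL was detected in 8 of the 137 newborn neuron-like cells.

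The levels were also read by the number of rule markers a cell had, among cells that were not contractile. ELAVL3 stood at 4.51, 5.14 and 9.10 CPM in cells with 0, 1 and 2 markers, and at 69.9, 317 and 398 CPM with 3, 4 and 5 markers. ELAVL4 was at 0.522 CPM (0.376 to 0.705) with 0 markers, 0.720 CPM with 1 and 2.53 CPM (1.90 to 3.29) with 2. It was thus already higher with 2 markers than with 0, and stood at 68.9 CPM with 3 and 292 CPM with 5. The edge of the rule therefore fell between 1058 cells with 2 markers and 52 cells with 3 markers, and the latter had values well below those of the other newborn neuron-like cells. ELAVL2 stayed between 48.7 and 52.5 CPM up to 2 markers and was at 172, 471 and 502 CPM from there on. RBFOX3 was at 3.13 CPM with 3 markers (0.646 to 9.15 CPM, 3 UMIs), 26.1 CPM with 4 (15 UMIs) and 54.6 CPM with 5 (43 UMIs). The number of markers detected gives no order in time.

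**Figure D3:**
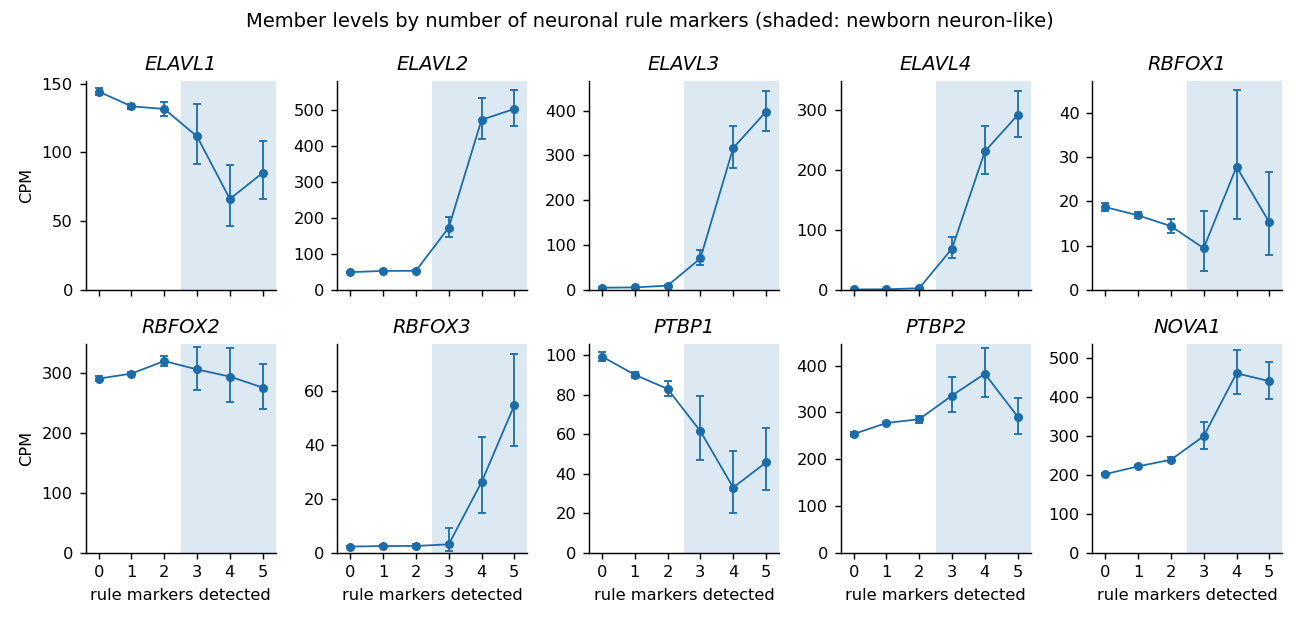
Level of each regulator (CPM, linear axis from 0, own scale per gene) by the number of the 5 neuronal rule markers detected, in cells that are not contractile, with exact Poisson 95% intervals and the newborn neuron-like range shaded. ELAVL2, ELAVL3 and ELAVL4 lie apart from progenitors from 3 markers on and RBFOX3 from 4 markers on, while PTBP1 is at 99.4 CPM with 0 markers, 33.0 CPM with 4 and 45.7 CPM with 5.

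In the RBFOX family, RBFOX3 (chr17:79089345-79611051, minus strand) was at 2.43 CPM in progenitors (573 UMIs), 26.3 CPM in newborn neuron-like cells (61 UMIs) and 1.63 CPM in contractile cells (125 UMIs). Its newborn ratio was 10.8 (8.16 to 14.1), and 145 tested genes had a larger one, and its contractile ratio was 0.671 (0.549 to 0.816). The share of cells with a UMI was 4.02% in progenitors and 6.07% in contractile cells, and 26 of 137 newborn neuron-like cells had one (12.8 to 26.6%). At 5000 UMIs per cell it was 1.15% in progenitors and 1.01% in contractile cells, with 15 of 136 newborn neuron-like cells. At equal depth the progenitor and contractile shares were thus close, and stray RNA was not measured. All 26 newborn neuron-like cells with RBFOX3 also had ELAVL3, which was found in 68.5% (59.0 to 77.0%) of the other 111. RBFOX1 was found in 34.6% (17.2 to 55.7%) of the 26 and 8.11% (3.77 to 14.8%) of the 111. Of the other 7 regulators, PTBP1 was found in 61.5% (40.6 to 79.8%) and 37.8% (28.8 to 47.5%), and ELAVL1 in 69.2% and 70.3%. These intervals cover counting over cells of 1 library, so they do not sort regulators into those that differ and those that do not. Those 111 cells had a median of 4 rule markers against 5 and 14558 UMIs against 13794.5. The part of marker number in these shares was not tested.

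RBFOX2 (chr22:35738736-36028824, minus strand), the member with wide expression outside neurons, was at 298 CPM in progenitors, 293 CPM in newborn neuron-like cells and 228 CPM in contractile cells. The newborn ratio was 0.982 (0.909 to 1.06) and the contractile ratio was 0.766 (0.753 to 0.779). RBFOX3 UMIs per RBFOX2 UMI were 0.00816 in progenitors and 0.0898 (0.0680 to 0.117) in newborn neuron-like cells, and reached 0.198 (0.139 to 0.276) in those with all 5 markers.

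RBFOX1 (chr16:5239802-7713340, plus strand), whose gene spans 2474 kb, was at 17.2 CPM, 15.9 CPM and 20.6 CPM in progenitors, newborn neuron-like and contractile cells. The newborn ratio was 0.925 (0.650 to 1.28). It was 0.551 with the rule on thinned counts, 0.581 at a mitochondrial share below 0.05 and 1.30 against the lowest mitotic set of progenitors. Its UMIs were uneven. In newborn neuron-like cells 14 of the 37 UMIs came from 1 cell, and in contractile cells 1 cell held 115 UMIs and the top 1% of cells held 27.4% of all RBFOX1 UMIs. The contractile ratio of 1.19 (1.12 to 1.26) was 0.670 (0.608 to 0.739) among cells with 30000 to 60000 UMIs and 0.915 (0.744 to 1.11) after thinning. It was above 1 in the other 14 of 16 alternatives, among them 1.24 with each cell counting alike. The alternative that counted cells of both rules as newborn neuron-like left progenitors and contractile cells unchanged, so its result could not differ. The counting software, at the default settings the authors used, also counts reads within introns, and the part of intronic reads in the UMIs of so long a gene was not tested.

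PTBP1 (chr19:797075-812327, plus strand) was at 92.6 CPM in progenitors (21826 UMIs), 49.1 CPM in newborn neuron-like cells (114 UMIs) and 106 CPM in contractile cells (8088 UMIs). The newborn ratio was 0.530 (0.437 to 0.638), with 8.82% of the genes tested below it. It passed 2-fold, at 0.436, with a rule of at least 4 markers and was 0.852 with a rule of at least 2. PTBP1 was detected in 42.3% (33.9 to 51.1%) of newborn neuron-like cells, 74.3% of progenitors and 94.8% of contractile cells, and at 5000 UMIs per cell in 19.1%, 35.3% and 40.7%. PTBP2 (chr1:96721665-96823738, plus strand) was at 270 CPM in progenitors, 332 CPM in newborn neuron-like cells and 136 CPM in contractile cells. Its newborn ratio was 1.23 (1.14 to 1.32), and its contractile ratio was 0.503 (0.493 to 0.514). The pair thus lay on opposite sides of the progenitor level in both comparisons, with PTBP2 the nearer to progenitors in newborn neuron-like cells and PTBP1 in contractile cells.

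PTBP2 UMIs per PTBP1 UMI, a ratio from which the scaling to CPM cancels, were 2.92 (2.87 to 2.96) in progenitors, 6.76 (5.55 to 8.31) in newborn neuron-like cells and 1.29 (1.25 to 1.32) in contractile cells. The newborn value was 2.32 times that of progenitors (1.90 to 2.83, a counting interval on the log scale) and the contractile value 0.441 times (0.427 to 0.456). Reads within introns were counted too, and the PTBP2 gene spans 102 kb against 15.3 kb for PTBP1. The part of intronic reads in each gene and group was not tested, so the ratio describes counted RNA and not spliced mRNA alone. By neuronal markers the ratio went from 2.55 with none to 11.6 (7.24 to 19.6) with 4 and 6.36 (4.46 to 9.31) with 5, and the intervals of the last 2 overlap. By contractile markers it was lower at each of the steps, from 3.21 in cells with no such UMI to 1.18 in cells with at least 20 per 10000. On the 2 sides of the contractile rule, PTBP2 was at 161 CPM (146 to 176) in 89 cells at 4 to 5 per 10000 and at 169 CPM (153 to 185) in 72 cells at 5 to 6, and these intervals overlap.

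The mitotic state of progenitors moved with the same ratio. Progenitors were ranked by summed mitotic genes and divided into 4 sets of 3051 cells. PTBP1 was at 67.4 CPM in the lowest set, then at 83.8, 106 and 103 CPM, and the ratio was 4.19, 3.37, 2.37 and 2.64. Newborn neuron-like cells, in which 7 of 8 mitotic genes were at least 2-fold lower, had 0.729-fold the PTBP1 of the lowest set, and their PTBP2 to PTBP1 ratio was 1.61 times that of this set. The part of mitotic state in these differences was not tested. PTBP2 itself lay between 251 and 283 CPM in all 4 sets. In 55.5% (46.7 to 64.0%) of newborn neuron-like cells PTBP2 was detected without PTBP1, against 24.5% of progenitors and 3.54% of contractile cells, whose depths differ as given above.

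**Figure D4:**
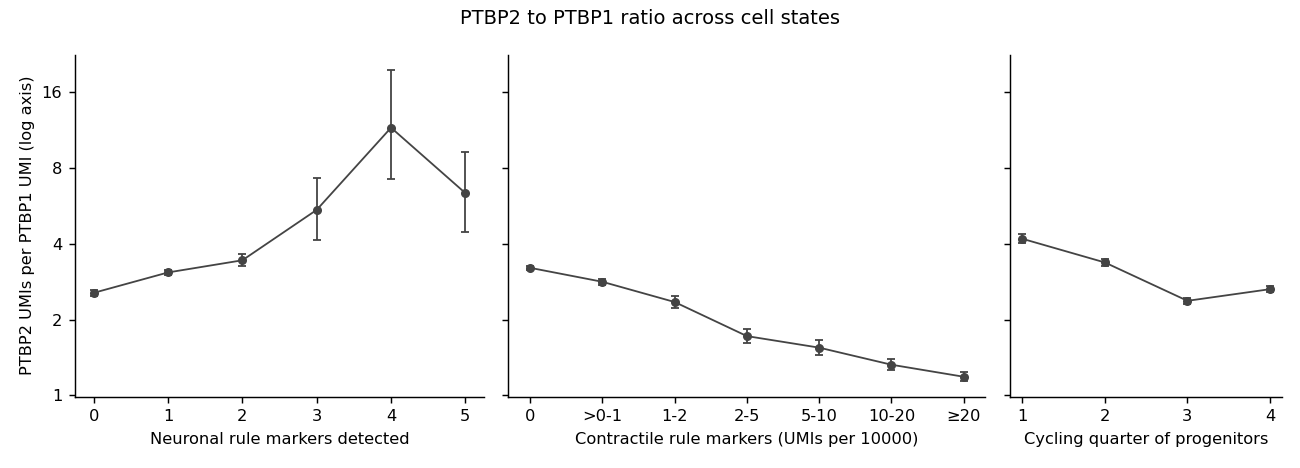
PTBP2 UMIs per PTBP1 UMI (log axis) by number of neuronal rule markers, by contractile rule markers per 10000 UMIs and by set of progenitors ranked on summed mitotic genes from lowest (1) to highest (4), with exact conditional 95% intervals. The ratio is highest, at 11.6, with 4 neuronal markers and lowest, at 1.18, in cells with the most contractile marker UMIs.

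NOVA1 (chr14:26443090-26598033, minus strand) was at 217 CPM in progenitors, 387 CPM in newborn neuron-like cells and 111 CPM in contractile cells. The newborn ratio was 1.79 (1.67 to 1.91), under the 2-fold line. It reached 2.07 with a rule of at least 4 markers and was 1.18 with a rule of at least 2. The contractile ratio was 0.513 (0.501 to 0.525). NOVA1 was detected in 94.7%, 94.9% and 92.6% of the 3 groups, and at 5000 UMIs per cell in 65.2%, 76.5% and 40.6%. Along the contractile markers it went from 233 CPM in cells with none to 105 CPM in cells with the most. It also differed by mitotic state, with 259 CPM in the lowest mitotic set of progenitors and 193 CPM in the highest.

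Contractile cells were the deepest group, so their values were also read in other ways. Among cells with 30000 to 60000 UMIs (1227 progenitors and 844 contractile cells), the ratio was 0.528 for PTBP2, 0.599 for NOVA1, 1.70 for ELAVL2 and 0.124 (0.0141 to 0.511) for ELAVL4. After thinning, PTBP2 was at 0.496 (0.466 to 0.528), NOVA1 at 0.482 (0.450 to 0.516) and ELAVL3 at 0.659 (0.428 to 0.977). All of these intervals take in 0.5, so the thinned counts do not place these genes on either side of the 2-fold line. In UMIs per cell, rather than per UMI of the group, the median ratio of all genes tested was 2.13, since contractile cells held 2.51 times the UMIs of progenitors. On this scale 4 of the 10 genes were at least 2-fold higher in contractile cells, where 56.1% of all genes tested were. PTBP2 (1.26), NOVA1 (1.29), RBFOX3 (1.68) and RBFOX2 (1.92) were below that median, and ELAVL3 was level with progenitors (1.03). ELAVL4 was at least 2-fold lower (0.320), as were 2.19% of all genes tested.

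Other splicing regulators were read from 5 lists of 70 genes, of which 66 had a sufficient level. Of the other neuron-enriched regulators, 5 of 8 tested were at least 2-fold higher in newborn neuron-like cells and none was at least 2-fold lower. Their median ratio was 6.71 (background 6.54% higher and 7.54% lower). CELF3, of the CELF family of splicing factors, was at 1.54 CPM in progenitors and 42.2 CPM in newborn neuron-like cells (27.4-fold, 21.7 to 34.4). SRRM4, the activator of neuronal microexons, was at 17.3 and 264 CPM (15.3-fold), its relative SRRM3 at 3.92 and 41.8 CPM (10.7-fold) and CELF4 at 10.8 and 116 CPM (10.8-fold). The fifth was NOVA2, the paralog of NOVA1, at 2.75-fold. Of the rest, CELF5 was at 1.53-fold, MBNL2 at 0.832-fold and KHDRBS2 at 0.596-fold (0.542 to 0.655). KHDRBS2 was the highest gene of this list in progenitors, at 315 CPM. CELF3 and SRRM3 met the level only through newborn neuron-like cells. Of the other 6 genes, 3 were at least 2-fold higher in newborn neuron-like cells (median 2.14, background 4.34%), and 4 were at least 2-fold lower in contractile cells (SRRM4, CELF4, CELF5 and KHDRBS2), with a median of 0.225 over the 6 and a background of 13.4%. MBNL2 went the other way in contractile cells, at 1.95-fold (1.89 to 2.00).

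The list headed broadly expressed or non-neural regulators was mixed. Its heading is no measure of where each gene is expressed. The list takes in MSI1, MSI2, CELF2 and KHDRBS3, and MSI2 was at 530 CPM in progenitors. In newborn neuron-like cells 3 of 14 tested were at least 2-fold higher, among them KHDRBS3 (3.84-fold), and 1 was lower, RBPMS2 (0.299-fold), beside backgrounds of 6.54% and 7.54%. In contractile cells 1 was higher, RBPMS (2.03-fold), a regulator of smooth muscle splicing, and 3 were lower, among them MBNL3 (0.161-fold) and MSI2 (0.331-fold), beside backgrounds of 6.68% and 14.9%, so the lower count in newborn neuron-like cells and both counts in contractile cells lay near those of all genes. ESRP1 and ESRP2, regulators of epithelial splicing, had no UMI in newborn neuron-like cells and at most 0.144 CPM elsewhere.

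The hnRNP and SR genes encode general regulators of splicing. None of 20 hnRNP genes and none of 16 SR genes passed 2-fold in either comparison. Of all genes tested, 6.54% were at least 2-fold higher and 7.54% lower in newborn neuron-like cells, and 6.68% and 14.9% in contractile cells. Their medians were 0.832 and 0.762 in newborn neuron-like cells and 0.775 and 0.799 in contractile cells. HNRNPF (0.595) and HNRNPD (0.658) were the lowest hnRNP genes in newborn neuron-like cells, and HNRNPA1 (0.583) and HNRNPA0 (0.672) were among those named for contractile cells. SRSF2 was at 0.544 and SRSF7 at 0.622 in newborn neuron-like cells, and SRSF5 at 0.601 and SRSF12 at 0.625 in contractile cells. PTBP1 in newborn neuron-like cells, at 0.530, was below all 36 of these genes, with an interval (0.437 to 0.638) that takes in the values of SRSF2, HNRNPF and SRSF7.

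The microRNA host transcripts and REST, the silencer of neuronal genes, lay on opposite sides of the progenitor level in newborn neuron-like cells. REST was at 111 CPM in progenitors and 53.4 CPM in newborn neuron-like cells, a ratio of 0.481 (0.400 to 0.574). LINC00461 was at 3.48 and 94.4 CPM (27.1-fold) and C1orf61 at 15.6 and 117 CPM (7.52-fold), both of them hosts of the miR-9-5p sequence printed above. LINC00599, the host of a miR-124 copy, was at 0.182 and 22 CPM (120-fold, 78.7 to 185). In contractile cells C1orf61 was at 0.0402-fold (0.0296 to 0.0534). The other 2 hosts met the level only through newborn neuron-like cells, and their contractile intervals reach past 0.5, with LINC00461 at 0.416 (0.338 to 0.508) and LINC00599 at 0.286 (0.0746 to 0.788, from 4 UMIs against 43). The other 4 genes of this list, RCOR1, CTDSP1, CTDSP2 and CTDSPL, lay between 0.622 and 0.971 in newborn neuron-like cells.

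**Figure D5:**
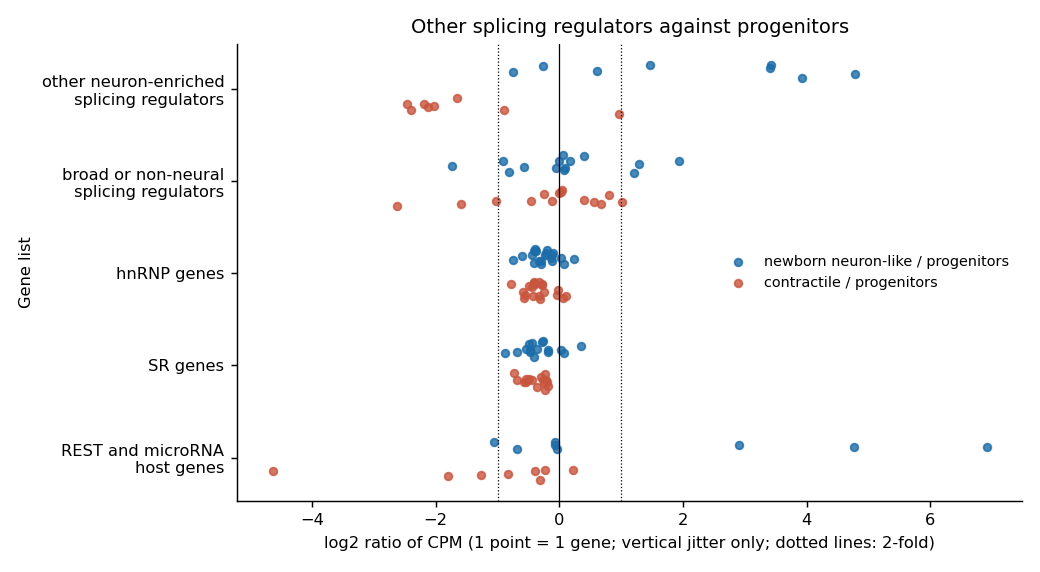
Log2 ratio to progenitors of each gene in 5 lists of other regulators, in newborn neuron-like and contractile cells, 1 point per gene tested, with dotted lines at 2-fold. The hnRNP and SR genes all lie within the lines, and the neuron-enriched regulators spread from 0.596-fold to 27.4-fold in newborn neuron-like cells.

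The genes most like 4 of the regulators were found from log2(CPM + 1) over 17 overlapping cell sets (neuronal markers, contractile markers and mitotic sets), among 7755 genes with at least 20 CPM on average. The sets share cells and rest partly on the rule markers, so the correlations describe these sets only. ELAVL4 was closest to LHX9, CACNA2D1, INSM1 (itself a rule marker), AL033504.1 and DLL3, with Pearson's r from 0.993 to 0.998. ELAVL3 was closest to CBFA2T2, NCOA1, EBF3, DLL3 and RGS16 (r from 0.990 to 0.995), and DLL3 was the gene both lists share. PTBP1 was closest to NOP58, SNRPB, UTP18, SSB and ODC1 (r from 0.989 to 0.995). PTBP2 was closest to AC124254.1, LINC02253, CACNA1E, LINC00476 and RSF1 (r from 0.993 to 0.995).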

How the data were processed

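The authors deposited raw UMI counts per gene and barcode of 1 library (a 3′ droplet kit, with 20000 cells targeted), with no normalization, made with Cell Ranger 7.0.1 at default parameters on GRCh38. Deposited gene names and barcodes were used as labels. The annotation version is not given in the sources used here. At default parameters this software counts reads on the strand of the gene, intronic reads included, so UMIs of ELAVL3 cannot be told apart from those of a listed gene that overlaps it on the same strand.

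The cell filter follows the methods of the study. UMIs were summed per cell group. Genes with a mean of at least 5 CPM over the 3 groups were tested (11995, all 10 members included), where "tested" means compared with the 2-fold line, since 1 library allows no test. Shares of cells carry Clopper-Pearson intervals. The computation was tested on simulated data. Scrublet (expected rate 8%) marked 1 barcode, so it had not worked, and no doublet was removed. All barcodes carried 1 suffix.

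The members, groups, marker lists and lists of other regulators were chosen with earlier results of these data known. Of each list of other regulators, the 4 genes with the largest absolute log2 ratio in either comparison were named, and other genes named were chosen after their values were seen. Alternatives changed the scaling, the depth, the 2 rules, the progenitors used, the cell filters, doublet removal and the fold. Spans and exons came from GENCODE 44. The analysis used scanpy 1.11.5, scipy 1.17.1, numpy 2.4.6, matplotlib 3.10.9 and pandas 2.3.3 under Python 3.11.15.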

Additional observations from a re-analysis of the deposited data

How the results depend on the processing

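No paired analysis was possible because there was 1 library. ELAVL2, ELAVL3, ELAVL4, RBFOX3, PTBP2 and NOVA1 were above progenitors in newborn neuron-like cells under all 16 alternatives run for each, and PTBP1 and ELAVL1 were below. The alternatives reuse cells of the same library, and the share of all genes that kept a direction was not computed. The alternative that counted cells of both rules as contractile left progenitors and newborn neuron-like cells unchanged, so its result could not differ. With a rule of 2 neuronal markers (1195 cells) 2 regulators in place of 4 were at least 2-fold higher, ELAVL3 and ELAVL4 (background 1.46%). ELAVL2 was then at 1.61 and RBFOX3 at 1.99, and the change of the PTBP2 to PTBP1 ratio was 1.27. That change was 2.91 with the rule on thinned counts (83 cells) and 1.61 against the lowest mitotic set of progenitors, which was chosen after seeing the data. The count of regulators at least 2-fold lower went from 0 to 1 in UMIs per cell, with each cell counting alike, with 4 markers, with the rule on thinned counts, against progenitors with SOX2 and no neuronal marker and at a mitochondrial share below 0.05 (backgrounds 7.96 to 14.3%), and to 2 at a fold of 1.5 (background 17.5%), where 5 were higher (background 12.9%). In contractile cells 4 were higher and 1 was lower in UMIs per cell, where 56.1% of all genes tested were higher and 2.19% lower. With the level filter on the compared groups only, an alternative added on seeing the values, 0 were lower. At a fold of 1.5, 1 was higher and 4 were lower (backgrounds 11.9% and 29.6%). Also 4 were lower at a mitochondrial share below 0.05 and without the highest 8% of Scrublet scores (background 15.9% in both). The ELAVL3 ratio in contractile cells turned to 1.03 in UMIs per cell. The contractile change of the PTBP2 to PTBP1 ratio was 0.415 thinned, 0.404 with each cell counting alike, 0.504 against progenitors with SOX2, 0.410 at the lower mitochondrial share, 0.426 without the highest Scrublet scores and 0.495 among cells with 30000 to 60000 UMIs, the last chosen after seeing the data. The causes were not tested. The 137 newborn neuron-like cells limit what low genes such as RBFOX1 and RBFOX3 can show.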
